A study of Mus musculus with 15 samples.

Results

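A set of 9 genes that mark or enforce cell cycle arrest were followed through mRNA-Seq of kidney podocyte fractions, out of 46078 genes in the count table. They were chosen by name: the INK4 inhibitors Cdkn2a, Cdkn2b and Cdkn2c, the CIP/KIP inhibitors Cdkn1a, Cdkn1b and Cdkn1c, the stress regulator Trp53 with its antagonist Mdm2, and the nuclear lamina gene Lmnb1. All 9 were found by symbol. The mice were male C57BL/6J. Young mice were 4 months old and received no injection. Both aged groups entered at 21 months and were injected intraperitoneally each week at 12 mg/kg for 8 weeks by the protocol (the sample titles of the antibody-treated mice say 47 days), either with RMP1-14, a neutralizing antibody against the immune checkpoint receptor PD-1 (aPD1ab), or with 2A3, its IgG2a isotype control. Age and injection therefore cannot be told apart in a comparison with young mice, and the antibody acts on every cell of the animal that carries PD-1. Cortex was digested and cells that bound antibodies to the podocyte protein nephrin were pulled out with magnetic beads. Of 15 mice in the labels, 13 libraries could be tied to a group: 5 were young, 4 had received IgG2a and 4 had received aPD1ab. The tie rests on animal numbers that head the columns and stand beside the coloured podocyte points in the study's principal component plot, since no sample label holds them, and replicate numbers follow the order of the columns.

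Cells that stop dividing for good, or senescent cells, are held in arrest by proteins that block cyclin-dependent kinases (CDKs). INK4 proteins bind CDK4 and CDK6 and keep cyclin D away from them, CIP/KIP proteins bind assembled cyclin and CDK complexes, and both leave the retinoblastoma protein in its active, growth-blocking form. The podocyte is a terminally differentiated cell of the kidney filter that rarely divides, and it carries p57, the product of Cdkn1c, throughout adult life. The study asked whether blocking PD-1 changes features of the aged podocyte, senescence among them.

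The fractions were mixtures. Nephrin (Nphs1), the protein used for the pull-down, stood at 64.6 ± 15.99 CPM (SD, n = 5; CPM are read counts scaled to the size of the library) in young fractions, while Umod of the thick ascending limb stood at 3565 ± 753 and Slc34a1 of the proximal tubule at 2636 ± 622. The 10 podocyte markers summed to 1014 to 1564 CPM in young libraries, 576 to 756 with IgG2a and 333 to 928 with aPD1ab, and none of the 10 was at 0 in any group. The 10 proximal tubule markers summed to 6394 to 10205, 877 to 4598 and 4455 to 13758 CPM in the same order, and the 10 macrophage markers to 1618 to 2790, 2406 to 7466 and 1732 to 4233. Aged IgG2a replicate 1 stood apart from the other 3 libraries of its group, which had 877 to 1359 CPM of proximal tubule and 5340 to 7466 CPM of macrophage markers against 4598 and 2406 in replicate 1. Values without this library are given beside those with it for the members, and for the lists where the counts changed. In such bulk fractions, fewer cells of a type and less RNA per cell cannot be told apart. Depth ran from 19912969 to 32717100 counted reads per library.

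Between young and aged IgG2a-injected mice, Cdkn2c rose and Cdkn1c fell in the fit of all libraries (edgeR's quasi-likelihood test, adjusted p under 0.05). These were 2 of the 8 members that passed the filter on low counts, 1 in each direction, beside 9.05% of all 15953 genes tested that rose and 8.38% that fell. The median log2 fold change of the 8 members was 0.30, and that of all genes 0.04. Scaled by library totals alone, 331 genes rose and 3380 fell in place of 1443 and 1337, and the median of all genes moved by -0.41. Without aged IgG2a replicate 1, Cdkn1b, Cdkn2c, Trp53, Mdm2 and Lmnb1 rose and Cdkn1c fell, beside 22.1% of 16216 genes that rose and 23.5% that fell. The median of the members was then 0.31.

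Between the aged groups, 0 of 9 members and 0 of 15530 genes were called in the fit of all libraries by edgeR, so the background was 0%. An unadjusted p under 0.05 was reached by 4341 genes, and DESeq2 called 2132 genes and 0 members. Without aged IgG2a replicate 1, Cdkn1b, Trp53 and Lmnb1 were lower with aPD1ab and 0 members were higher, beside 13.2% of 15770 genes that fell and 17.1% that rose. Between young and aged aPD1ab-injected mice, Cdkn2c rose and 0 of the 8 members tested fell, beside 12.4% of 15986 genes that rose and 9.97% that fell; under library totals alone 856 genes rose and 1632 fell in place of 1984 and 1594. Comparisons that share a group share its libraries, so their values are set side by side and not counted as separate support.

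**Figure D1:**
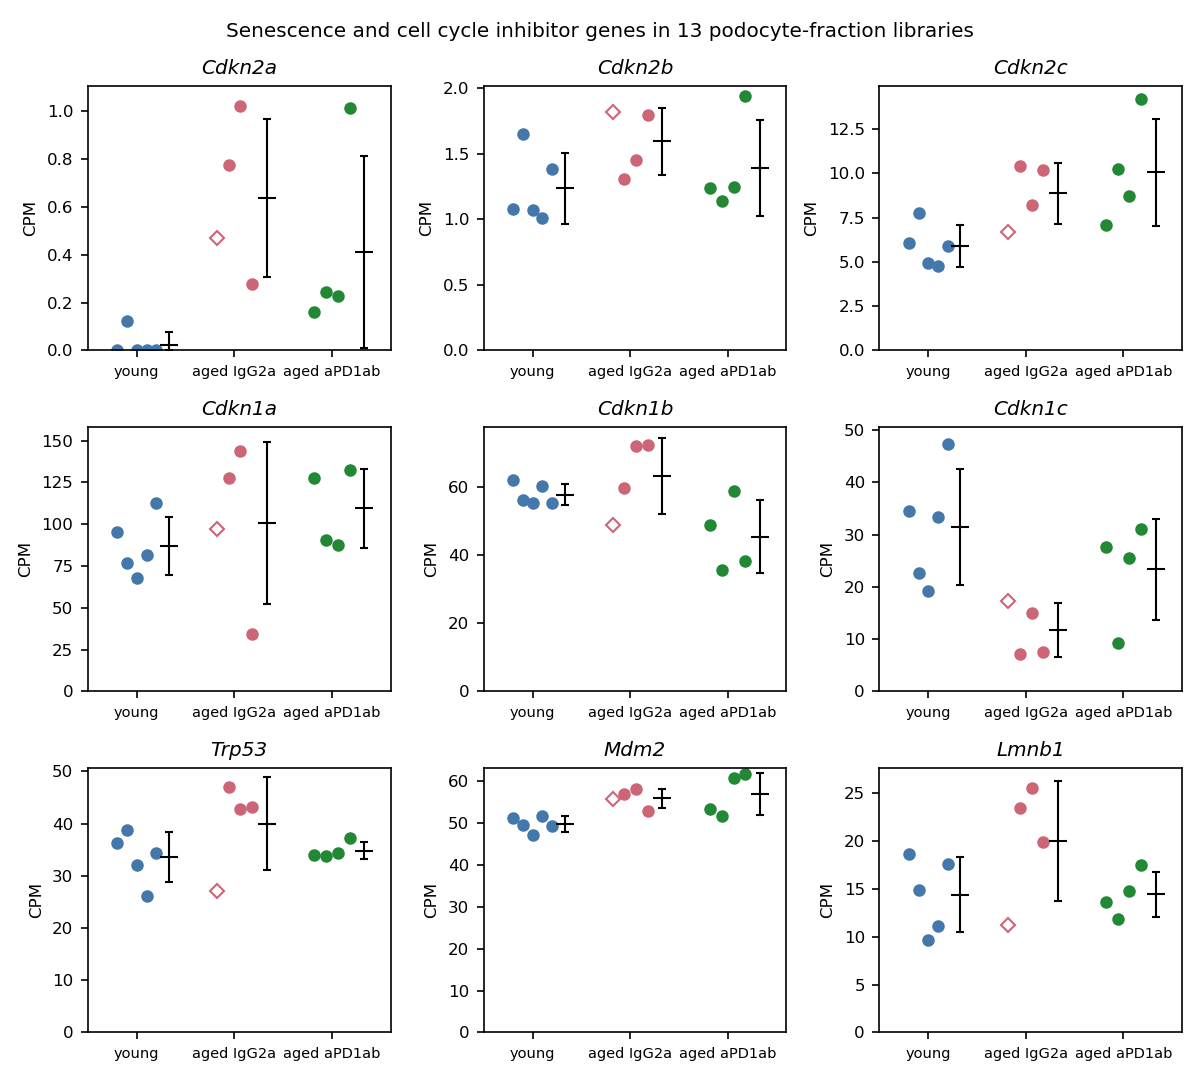
CPM (vertical axes, from 0) of each of the 9 members in each of 13 libraries, by group; points are mice, the open diamond is aged IgG2a replicate 1, and bars are the mean and SD (cut at 0). Cdkn2a lies at 0 in 4 young libraries and above every young library in all 8 aged ones, and Mdm2 stays between 47.0 and 61.6 throughout.

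**Figure D2:**
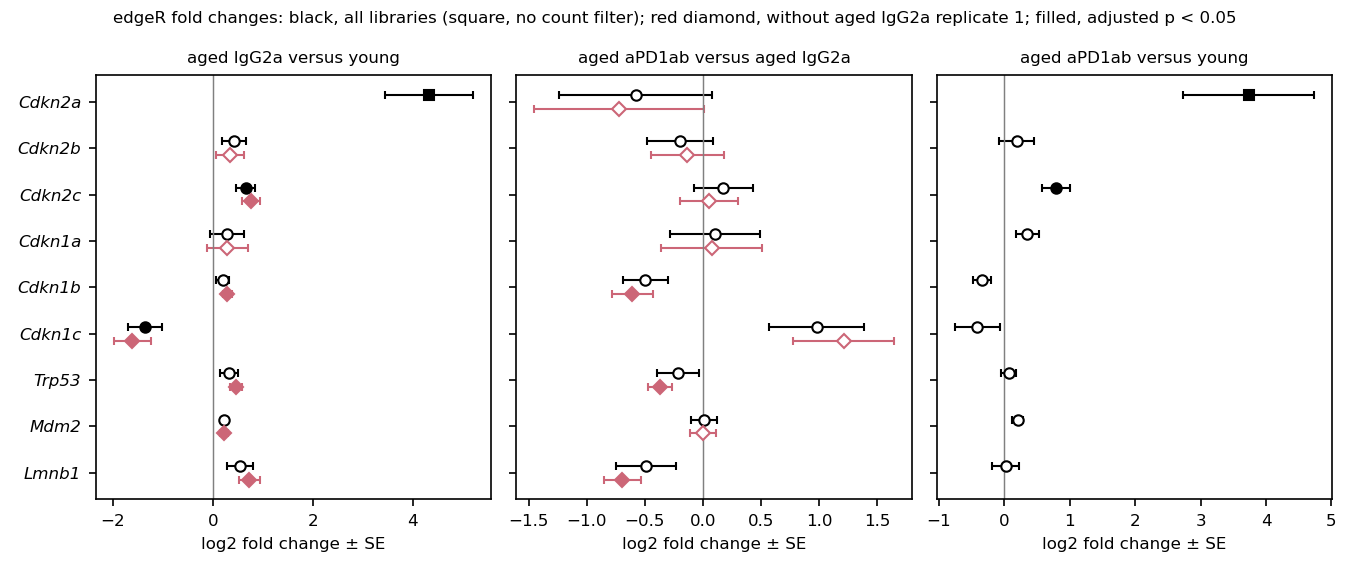
edgeR log2 fold change with its standard error (horizontal axes) for each member in the 3 comparisons; black marks are all libraries, red diamonds leave out aged IgG2a replicate 1, filled marks have an adjusted p under 0.05, and the black squares of Cdkn2a come from the fit without a filter on counts. In the aged IgG2a against young panel Cdkn2c and Cdkn1c are filled in both fits, and Cdkn1b, Trp53, Mdm2 and Lmnb1 only in the red one.

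All 3 INK4 genes lie on chromosome 4, Cdkn2a next to Cdkn2b and Cdkn2c far from both. Cdkn2a has separate starts for p19Arf, which restrains Mdm2, and for p16Ink4a, which inhibits CDK4 and CDK6. Both transcripts share later exons and are 1 gene in the counts, so the values below do not say which of them was present. The 250 bases before each of these starts, and before the outer start of Cdkn2c, are shown because Cdkn2a, in the fit without a filter on counts, and Cdkn2c, with the filter, are the members called higher in both aged groups against young (RefSeq starts, GRCm38.p6, minus strand, written 5′ to 3′; capitals mark GGGCGG, the GC box, and TTTCCCGC, a core of E2F sites).
Cdkn2a, start of p19Arf, chr4:89294620-89294869: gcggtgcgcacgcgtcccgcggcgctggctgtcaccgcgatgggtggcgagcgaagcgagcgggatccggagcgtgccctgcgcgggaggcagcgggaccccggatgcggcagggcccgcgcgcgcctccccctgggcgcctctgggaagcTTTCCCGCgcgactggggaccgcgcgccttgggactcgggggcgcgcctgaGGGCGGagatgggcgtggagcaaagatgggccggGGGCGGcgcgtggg
Cdkn2a, start of p16Ink4a, chr4:89282193-89282442: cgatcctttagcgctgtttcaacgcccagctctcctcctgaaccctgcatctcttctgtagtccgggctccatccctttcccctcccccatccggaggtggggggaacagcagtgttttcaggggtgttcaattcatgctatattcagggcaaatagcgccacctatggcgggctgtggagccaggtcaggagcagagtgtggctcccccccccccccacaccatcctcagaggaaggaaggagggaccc
Cdkn2c, outer start, chr4:109666757-109667006: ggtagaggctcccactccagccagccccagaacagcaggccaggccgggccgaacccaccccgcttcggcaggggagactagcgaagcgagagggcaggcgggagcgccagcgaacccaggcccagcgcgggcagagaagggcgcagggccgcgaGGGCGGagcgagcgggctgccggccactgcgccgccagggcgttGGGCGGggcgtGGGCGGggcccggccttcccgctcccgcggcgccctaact

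The p19Arf window was 78.4% G and C, higher than 98.1% of all 32851 promoter windows of this length, and the Cdkn2c window was 77.2%. By contrast the p16Ink4a window held 60.0% and only 7 CG dinucleotides, against 40 and 29 in the other two. An E2F core (TTTCCCGC, TTTCGCGC, TTTGCCGC or TTTGGCGC, either strand) was found at the p19Arf start, 99 to 92 bases before it, and in 1.86% of all windows. The GC box was present 2 times in the p19Arf window, 3 times in the Cdkn2c window and not in the p16Ink4a window, and in 32.7% of all windows on either strand. These letters are a description of the windows only. Promoter entries were found for 7 of the 9 members at 10 starts in all, and none for Cdkn1c and Lmnb1.

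Cdkn2a (ENSMUSG00000044303, GRCm38 chromosome 4, 89274471 to 89294653) was the scarcest member. The young libraries held 0, 4, 0, 0 and 0 reads of it. Aged IgG2a-injected mice held 16, 19, 19 and 4 reads, and aged aPD1ab-injected mice 4, 6, 4 and 36. As CPM the young mice reached at most 0.122, the IgG2a group 0.469, 0.777, 1.02 and 0.276, and the aPD1ab group 0.160, 0.244, 0.227 and 1.01. All 8 aged libraries were above all 5 young ones, and the aged groups overlapped each other. With reads summed over each group, the level was 22.0-fold that of young with IgG2a (95% exact interval 8.13 to 83.3) and 16.9-fold with aPD1ab (6.19 to 64.3); these intervals cover counting error only. A count of 0 allows up to 3 reads, or 0.101 to 0.124 CPM in the 4 young libraries without a read, below the 0.160 CPM of the lowest aged library. That aged value itself rests on 4 reads, as does young replicate 2, so counting error alone could bridge the lowest aged and highest young libraries. In the aPD1ab group, replicate 4 held 36 of the 50 reads. The filter on low counts removed Cdkn2a from both comparisons with young mice. In the fit without a filter, its log2 fold change was 4.32 (SE 0.89, edgeR adjusted p = 0.0157) with IgG2a and 3.73 (SE 1.001, edgeR adjusted p = 0.0258) with aPD1ab, beside 3.18% of 26039 and 5.94% of 26041 genes that rose in these fits. DESeq2 gave adjusted p = 0.000247 with IgG2a and 0.00925 with aPD1ab. The filter kept the gene in 1 fit of all groups (edgeR adjusted p = 0.0169 and 0.0176). With IgG2a the filter also kept it in 1 fit that left out a library (edgeR adjusted p = 0.0255). The gene passed the filter there through its reads in the aged libraries, so these filtered fits are not counted as support. An exact permutation test of log2 CPM, two-sided and unadjusted, gave p = 0.00794, the smallest that 126 splits allow, with IgG2a (n = 5 and 4) and p = 0.0159 with aPD1ab. Between the aged groups the difference was -0.58 (SE 0.66, edgeR adjusted p = 0.589), with aPD1ab at 0.769-fold of IgG2a in summed reads (0.516 to 1.14). Without aged IgG2a replicate 1 it was -0.72 (SE 0.73, edgeR adjusted p = 0.477); with age, the filter removed the gene from that fit too. Without aPD1ab replicate 4 the log2 difference was -1.60 (edgeR adjusted p = 0.219), which changed its size but not the call.

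Cdkn2b (ENSMUSG00000073802, chromosome 4, 89306299 to 89311039) encodes p15, an inhibitor of the same kinases, and lies next to Cdkn2a. It was at 1.08, 1.65, 1.07, 1.01 and 1.38 CPM in young mice, 1.82, 1.31, 1.45 and 1.80 with IgG2a, and 1.24, 1.14, 1.25 and 1.94 with aPD1ab. The groups overlapped in every pair. The log2 fold change with age was 0.42 (SE 0.24, edgeR adjusted p = 0.227) and fell to 0.004 under library totals alone, and that between the aged groups was -0.20 (SE 0.28, edgeR adjusted p = 0.672). Without replicate 1 these were 0.34 and -0.14 (edgeR adjusted p = 0.349 and 0.770). The neighbours Cdkn2a and Cdkn2b were not compared with each other in a test.

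Cdkn2c (ENSMUSG00000028551, chromosome 4, 109660876 to 109667189) encodes p18, the INK4 protein expressed in many normal tissues. Young mice had 6.05, 7.76, 4.92, 4.77 and 5.90 CPM. The aged IgG2a group had 6.71, 10.4, 8.19 and 10.2, and the aged aPD1ab group 7.08, 10.3, 8.73 and 14.2. The lowest aged libraries lay within the young range, and the others lay above it. The log2 fold change was 0.66 (SE 0.20, edgeR adjusted p = 0.0456) with IgG2a and 0.79 (SE 0.22, edgeR adjusted p = 0.0278) with aPD1ab, both against young, and 0.17 (SE 0.25, edgeR adjusted p = 0.680) between the aged groups. Without aged IgG2a replicate 1 the change with age was 0.76 (SE 0.18, edgeR adjusted p = 0.00597) and the difference between the aged groups 0.05 (edgeR adjusted p = 0.896). The calls were close to the threshold: 2 of 9 fits that left out 1 library kept the call with IgG2a, and 4 of 9 kept it with aPD1ab. Over all 18 alternative fits, 4 kept it with IgG2a and 11 with aPD1ab. Both calls were kept by DESeq2 (DESeq2 adjusted p = 0.0211 and 0.00698) and by voom (limma adjusted p = 0.00655 and 0.0188). Under library totals alone the changes were 0.20 and 0.67 (edgeR adjusted p = 0.475 and 0.0869), and the call with IgG2a was also lost with RLE factors, in 1 fit of all groups and without a filter (edgeR adjusted p = 0.0509, 0.0821 and 0.0756). Dividing cells also carry Cdkn2c. Set against the mean of 12 proliferation genes, the difference with IgG2a was 0.14 (exact permutation test, p = 0.556; n = 5 and 4), and that with aPD1ab was 0.92 (exact permutation test, p = 0.00794, the smallest possible).

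Among the CIP/KIP genes, Cdkn1a (ENSMUSG00000023067, chromosome 17, 29090976 to 29100727) encodes p21, the main transcriptional target through which p53 stops the cycle. It stood at 95.3, 77.1, 67.9, 81.9 and 113 CPM in young mice, 96.9, 128, 144 and 34.2 with IgG2a, and 127, 90.8, 87.4 and 133 with aPD1ab. The IgG2a group held both the lowest and the highest library of all 13. Its coefficient of variation was 48.0%, against 19.99% in young mice and 21.7% with aPD1ab. The log2 fold change was 0.28 (SE 0.34, edgeR adjusted p = 0.580) with IgG2a and 0.35 (SE 0.18, edgeR adjusted p = 0.179) with aPD1ab against young, and 0.10 (SE 0.39, edgeR adjusted p = 0.881) between the aged groups. No difference was detectable over this spread; under library totals alone the sign with IgG2a turned to -0.11. Without aged IgG2a replicate 1 the spread remained, at 102 ± 59.1 CPM (SD, n = 3), and the log2 differences were 0.29 from young and 0.07 between the aged groups (edgeR adjusted p = 0.584 and 0.913). The change with age rested on single libraries: it was 0.55 (edgeR adjusted p = 0.104) without replicate 4, the lowest, and 0.056 (edgeR adjusted p = 0.932) without replicate 3, the highest.

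Cdkn1b (ENSMUSG00000003031, chromosome 6, 134920401 to 134925513) encodes p27, which holds resting cells out of the cycle and is cleared by the ligase subunit Skp2. Young mice were tightly grouped at 55.3 to 62.1 CPM (57.9 ± 3.11, SD, n = 5). The IgG2a group had 49.0, 59.7, 72.0 and 72.5 CPM, and the aPD1ab group 48.9, 35.7, 59.0 and 38.4. Without replicate 1 the 3 IgG2a libraries lay above all 4 aPD1ab ones. The log2 difference of aPD1ab from IgG2a was -0.50 (SE 0.20, edgeR adjusted p = 0.146) with all libraries and -0.61 (SE 0.18, edgeR adjusted p = 0.0334) without replicate 1. The change with age was 0.20 (SE 0.13, edgeR adjusted p = 0.306), 0.29 (SE 0.09, edgeR adjusted p = 0.0196) without replicate 1 and -0.26 under library totals alone. Voom with all libraries gave -0.66 (limma adjusted p = 0.00858) between the aged groups and 0.28 (limma adjusted p = 0.0220) with age. Against young, aPD1ab stood at -0.34 (SE 0.14, edgeR adjusted p = 0.105). That difference was called in some alternatives, -0.48 with library totals (edgeR adjusted p = 0.0423), -0.39 with voom (limma adjusted p = 0.0371), -0.44 and -0.45 with the proximal tubule and macrophage scores (edgeR adjusted p = 0.00506 and 0.0243) and -0.49 without aPD1ab replicate 3 (edgeR adjusted p = 0.0237), and it gave p = 0.0317 in the exact permutation test.

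Cdkn1c (ENSMUSG00000037664, chromosome 7, 143458339 to 143461050) encodes p57, the inhibitor that marks the nuclei of mature podocytes. Young mice had 34.6, 22.7, 19.1, 33.4 and 47.3 CPM. The aged IgG2a group had 17.2, 7.16, 15.03 and 7.46, all below the young range. The aged aPD1ab group had 27.6, 9.24, 25.5 and 31.0, so 3 libraries lay within the young range and 1 with the IgG2a group. With age Cdkn1c fell, with a log2 fold change of -1.36 (SE 0.33, edgeR adjusted p = 0.0264), or -1.61 (SE 0.37, edgeR adjusted p = 0.00755) without replicate 1. This call held in 3 of 9 fits that left out 1 library. The aPD1ab group differed from IgG2a by 0.98 (SE 0.41, edgeR adjusted p = 0.160), by 1.21 (SE 0.43, edgeR adjusted p = 0.0658) without replicate 1, and from young by -0.41 (SE 0.34, edgeR adjusted p = 0.411). Voom with all libraries put the difference from IgG2a at 1.325 (limma adjusted p = 0.0170), the 1 call among 17 alternative fits. Cdkn1c moved with the podocyte markers. Its level minus the mean of the 10 podocyte markers, in which it is not included, was -1.42 to -0.82 on the log2 scale in young mice, -1.35 to -0.67 with IgG2a and -0.82 to -0.32 with aPD1ab. On that scale the difference with age was 0.15 (exact permutation test, p = 0.476; n = 5 and 4), between the aged groups 0.42 (exact permutation test, p = 0.143; n = 4 and 4), and of aPD1ab from young 0.57 (exact permutation test, p = 0.0238). Relative to the podocyte markers, the change with age thus had the opposite sign and lay within the spread between libraries. Of the exon bases of Cdkn1c, 30.7% overlap the antisense gene Gm44732, and without a stated strand setting their reads cannot be told apart.

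**Figure D3:**
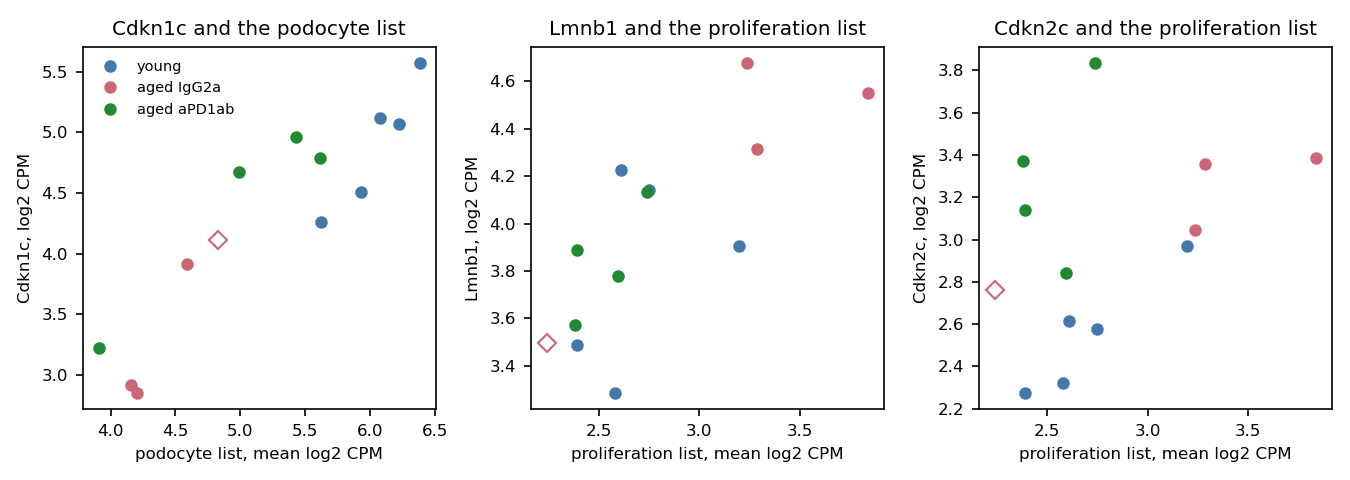
Log2 CPM of Cdkn1c against the mean log2 CPM of 10 podocyte markers, and of Lmnb1 and Cdkn2c against that of 12 proliferation genes, 1 point a library, with aged IgG2a replicate 1 as an open diamond. Cdkn1c follows the podocyte markers from the aged to the young libraries, and the 3 other aged IgG2a libraries hold the highest proliferation values with the highest Lmnb1.

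Trp53 (ENSMUSG00000059552, chromosome 11, 69580359 to 69591873) encodes p53, the transcription factor that answers DNA damage and other stress with arrest or death. It was at 36.2, 38.8, 32.1, 26.2 and 34.3 CPM in young mice. The IgG2a group had 27.03, 47.1, 42.7 and 43.1, and the aPD1ab group 33.9, 33.8, 34.3 and 37.3. Replicate 1 was the lowest aged library and the other 3 IgG2a libraries were the highest of all. The change with age was 0.32 (SE 0.18, edgeR adjusted p = 0.218), and 0.46 (SE 0.12, edgeR adjusted p = 0.0101) without replicate 1, while library totals alone gave -0.13. The difference of aPD1ab from IgG2a was -0.22 (SE 0.18, edgeR adjusted p = 0.453) and -0.37 (SE 0.10, edgeR adjusted p = 0.0285) without replicate 1, while library totals alone gave 0.077. Voom with all libraries gave -0.32 (limma adjusted p = 0.0448) between the aged groups and 0.40 (limma adjusted p = 0.0115) with age. The aPD1ab group and young mice differed by 0.066 (SE 0.12, edgeR adjusted p = 0.711).

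Mdm2 (ENSMUSG00000020184, chromosome 10, 117688875 to 117710758) encodes the ligase that marks p53 for destruction and is itself switched on by p53. It was the steadiest member. Young mice had 51.3, 49.5, 47.0, 51.7 and 49.2 CPM, the IgG2a group 55.7, 56.9, 58.1 and 52.8, and the aPD1ab group 53.4, 51.7, 60.7 and 61.6. Its highest library was 1.31-fold its lowest, a smaller ratio than in all but 2.11% of 15705 genes, for which the median was 2.53. The IgG2a libraries lay above all young ones by a small margin. The log2 fold change was 0.23 (SE 0.08, edgeR adjusted p = 0.0668), and 0.23 (SE 0.07, edgeR adjusted p = 0.0295) without replicate 1. Under library totals alone it was -0.19. With all libraries it was 0.22 with DESeq2 (DESeq2 adjusted p = 0.0165) and 0.26 with voom (limma adjusted p = 0.00870). The exact permutation test, unadjusted, gave p = 0.00794 with IgG2a, the smallest possible, and p = 0.0159 with aPD1ab against young. In the latter comparison 0 of 18 alternative fits were called. The aPD1ab group differed from young by 0.20 (SE 0.09, edgeR adjusted p = 0.112) and from IgG2a by 0.012 (SE 0.11, edgeR adjusted p = 0.955), or by -0.0022 (edgeR adjusted p = 0.991) without replicate 1.

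Lmnb1 (ENSMUSG00000024590, chromosome 18, 56707813 to 56753424) encodes lamin B1, a filament protein under the nuclear membrane whose loss is used as a mark of senescent cells. It was at 18.6, 14.9, 9.68, 11.1 and 17.6 CPM in young mice, 11.2, 23.4, 25.5 and 19.8 with IgG2a, and 13.7, 11.8, 14.7 and 17.5 with aPD1ab. In 3 of 4 aged IgG2a libraries the level was above every other library, and replicate 1 was below the young median. The change with age was 0.54 (SE 0.27, edgeR adjusted p = 0.171), and 0.73 (SE 0.21, edgeR adjusted p = 0.0156) without replicate 1. Under library totals alone it was 0.076 (edgeR adjusted p = 0.827). With aPD1ab it was lower than with IgG2a by -0.49 (SE 0.26, edgeR adjusted p = 0.241), and by -0.69 (SE 0.16, edgeR adjusted p = 0.0157) without replicate 1. Voom with all libraries gave -0.58 (limma adjusted p = 0.0260) between the aged groups and 0.67 (limma adjusted p = 0.0184) with age. A fall with age was not seen in any group: aPD1ab and young differed by 0.018 (SE 0.20, edgeR adjusted p = 0.959). Relative to the 12 proliferation genes the difference with age was 0.0036 (exact permutation test, p = 0.960; n = 5 and 4) and that between the aged groups 0.21 (exact permutation test, p = 0.343; n = 4 and 4).

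Replicate 1 differed from the rest of its group in the marker levels given above, and why the calls changed without it was not tested. With the mean of the proximal tubule markers added to the fit of all libraries, the difference of aPD1ab from IgG2a was 0.25 for Trp53, 0.27 for Lmnb1 and 0.02 for Cdkn1b, opposite in sign to the fit without it, with edgeR adjusted p of 0.862, 0.888 and 0.991. With the macrophage score it was 0.11, 0.07 and -0.17 (edgeR adjusted p = 0.870, 0.935 and 0.756). The change of Cdkn2c with age was -0.003 with the proximal tubule score and 0.16 with the macrophage score (edgeR adjusted p = 0.997 and 0.766). That of Cdkn2c in aPD1ab against young was 0.82 and 0.79 (edgeR adjusted p = 0.0154 and 0.0319), and 0.77 with the podocyte score (edgeR adjusted p = 0.1685). The scores differ between the groups themselves, so these fits separate score and group poorly.

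Levels of different genes were compared per kilobase of exon (RPKM). In young mice Cdkn1a was the highest member at 24.5 ± 4.89 RPKM (SD, n = 5), then Cdkn1c at 15.4 ± 5.45, Cdkn1b at 12.7 ± 0.684, Mdm2 at 9.78 ± 0.368 and Trp53 at 8.29 ± 1.18. Lmnb1 followed at 4.86 ± 1.32, Cdkn2c at 2.19 ± 0.445, Cdkn2b at 0.890 ± 0.196 and Cdkn2a at 0.0208 ± 0.0466. The libraries overlapped between Cdkn1a and Cdkn1c, Cdkn1c and Cdkn1b, and Mdm2 and Trp53, and the other neighbours were apart. In the aged IgG2a group Cdkn1c came after Lmnb1, at 5.74 ± 2.53 RPKM (SD, n = 4), with overlap between these neighbours. In the aged aPD1ab group it stood after Cdkn1a again, at 11.4 ± 4.74 (SD, n = 4), and overlapped Mdm2 at 11.2 ± 0.996. The lowest places were held by Cdkn2b and Cdkn2a in each group, and with aPD1ab their libraries overlapped.

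**Figure D4:**
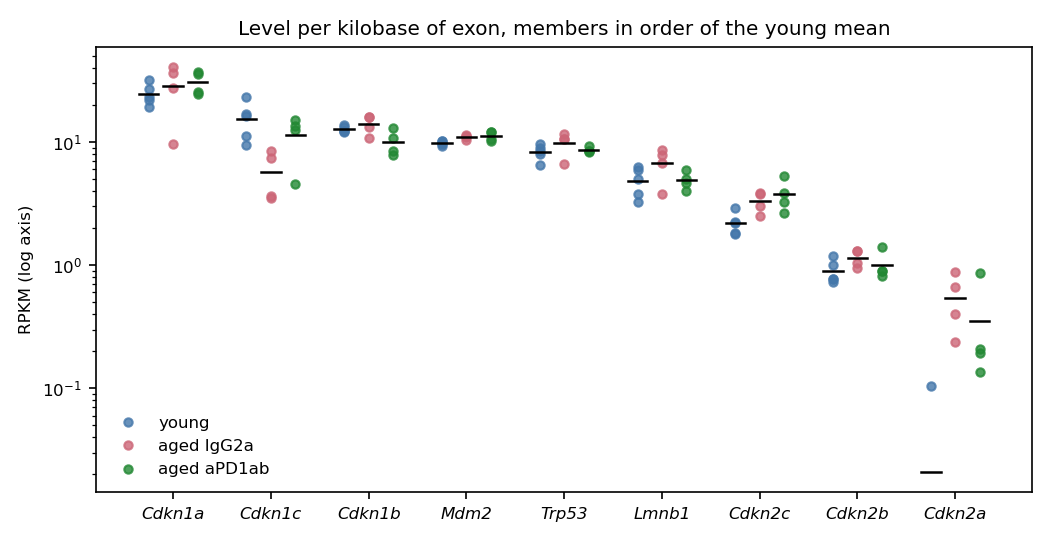
RPKM (log axis) of the members in each library, ordered by the young mean; points are mice, short lines the group means, and libraries with 0 reads of Cdkn2a are not drawn. Cdkn1c drops from the neighbourhood of Cdkn1b in young mice to that of Lmnb1 with IgG2a.

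The genes most like each member over the 13 libraries were found by Pearson's r of log2 CPM over 16329 other genes; all points share the same libraries, whose cell makeup and dissociation they have in common. For Cdkn1c they were Lmx1b (r = 0.952), Wt1 (0.935) and Myom2 (0.934); Lmx1b and Wt1 are transcription factors that podocytes depend on. For Cdkn1a they were Sertad1 (0.966), Csrnp1 (0.965) and Irf1 (0.951), the last an interferon-induced transcription factor. Cdkn1b was most like Tgfbr1 (0.956), a TGF-beta receptor, St8sia4 (0.954) and Dr1 (0.945). Trp53 was most like Tacc3 (0.944), a protein of the mitotic spindle, Csf2rb (0.941), a cytokine receptor of myeloid cells, and H2-T-ps (0.936). Among the members themselves Trp53 and Lmnb1 were the most alike pair (0.845). Cdkn2a reached 0.808 with Cdkn2c and 0.801 with Mdm2, but its mean was 0.332 CPM, below the 1 CPM asked of the other members. It lay tied at the floor in the young libraries without a read, so both values hold that step between young and aged libraries. Cdkn2c was most like Creg1 (0.926), Noc4l (0.923) and Tkt (0.907). The nearest genes to Lmnb1 were Map3k14, Smpd3 and Donson, those to Mdm2 were Fam76a, Rpl22l1 and Cnbp, and those to Cdkn2b were Igkj3, Igkv3-1 and Hist1h4h, of which the first 2 are immunoglobulin segments.

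The pathway around the members was read from written lists, and their counts are read against the shares of all genes tested that rose and fell: 9.05% and 8.38% with age in the IgG2a group, or 22.1% and 23.5% without replicate 1, 17.1% and 13.2% between the aged groups without replicate 1, and 12.4% and 9.97% with aPD1ab against young. Between the aged groups the fit of all libraries called 0 genes of every list, as did each fit that left out any other library. List calls between these groups come from pairwise edgeR fits. They thus rest on leaving out replicate 1, a library picked by its marker levels in these same data. With all libraries kept, 2132 genes were called by DESeq2, 6160 by voom and 2863 in 1 fit of all groups. Those fits were not read by list. Of 24 other p53 targets, 5 rose and 0 fell with age in the IgG2a group, with a median log2 fold change of 0.13. Sesn1, a stress-induced regulator of growth signalling, rose from 31.6 ± 3.23 to 54.4 ± 13.02 CPM (log2 fold change 0.85, SE 0.17, edgeR adjusted p = 0.0168), and Bax, a trigger of apoptosis, from 24.5 ± 2.71 to 37.8 ± 8.03 (0.70, SE 0.16, edgeR adjusted p = 0.0228; SD, n = 5 and 4). Without replicate 1, 6 rose and 4 fell, the latter led by Perp, a membrane protein of p53-driven death (-1.06), and cyclin G1 (Ccng1, -0.64). With aPD1ab against young 3 rose and 1 fell, among them Bax (0.80) and Gadd45a (0.78), a DNA damage response gene, and Rrm2b, which supplies nucleotides for repair (-0.67). Of the 12 p53 regulators, 0 rose and 1 fell with age, or 1 and 2 without replicate 1. Hipk2, a kinase of p53, fell with IgG2a (-0.56) and with aPD1ab (-1.06) against young, while 1 regulator rose with aPD1ab. Atm, the kinase that senses DNA breaks, was among the 3 that fell with aPD1ab (-0.75).

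Of 17 cyclins, CDKs and RB family genes, 2 rose and 0 fell with age, Cdk4, the kinase that INK4 proteins bind (0.38), and E2f4, a repressor E2F (0.31). Without replicate 1, 9 rose and 1 fell, with Cdk6 at 0.57. Between the aged groups 0 were called in the fit of all libraries. Without replicate 1, 1 rose and 7 fell there (17.1% and 13.2% of all genes), among them the pocket protein Rbl1 (-0.93) and E2f2 (-0.98). In aPD1ab against young 1 rose, Cdk4 (0.57), and 5 fell, led by the cyclin Ccnd2 (-0.96) and Rb1 (-0.57), the retinoblastoma gene. Of the 2 further CDK inhibitors listed, Cdkn2d, encoding p19 of the INK4 family, rose against young in both aged groups, by 0.44 (SE 0.11, edgeR adjusted p = 0.0303) and 0.54 (SE 0.13, edgeR adjusted p = 0.0155).

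Of 8 genes of p27 turnover and RB control, 3 rose and 0 fell with age. Skp2, the ligase subunit that recognises p27, rose from 4.14 ± 0.979 to 10.2 ± 3.36 CPM (1.36, SE 0.27, edgeR adjusted p = 0.0148; SD, n = 5 and 4), and Myc from 18.3 ± 5.39 to 34.5 ± 9.45 (0.99). Between the aged groups 0 of the 8 were called in the fit of all libraries. Without replicate 1, Skp2 was lower with aPD1ab than with IgG2a by -1.11 (SE 0.20, edgeR adjusted p = 0.00866), as was its partner Cks1b (-0.96). Skp2 and Cdkn1b thus had the same direction in that comparison. Of 14 genes that control the INK4-ARF locus, 1 rose with age, the Polycomb subunit Eed (0.49), or 4 without replicate 1. Without replicate 1, 4 were lower with aPD1ab than with IgG2a, against 0 with all libraries, among them the demethylase Kdm2b (-0.93) and Ezh2, the Polycomb methyltransferase (-0.89).

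Of 12 proliferation genes, 0 rose and 0 fell with age in the fit of all libraries, with a median of 0.66. The most abundant were Pcna at 53.2 ± 5.75 and 75.9 ± 21.2 CPM and Mki67 at 21.6 ± 6.71 and 37.6 ± 20.4 in young and IgG2a mice (SD, n = 5 and 4). Their summed level was 118 CPM in replicate 1 and 190 to 293 in the other 3 libraries of that group, against 123 to 181 in young mice and 121 to 146 with aPD1ab. Without replicate 1, 8 rose with age (22.1% of all genes). Between the aged groups 0 were called with all libraries. Without replicate 1, 9 were lower with aPD1ab than with IgG2a (13.2% of all genes), among them Top2a (-1.41) and Mki67 (-1.43), and Tyms was higher (0.60). The list written for the nuclear lamina and envelope held 12 genes, among them the chromatin proteins Hmgb1 and Hmgb2, which are not part of either structure. Of these 12, Emd, emerin, rose with age (0.36) and 0 fell in the fit of all libraries. Without replicate 1, 4 rose, among them Sun2 (0.44) and Hmgb2 (0.70), and 2 fell, the lamin protease Zmpste24 (-0.50) and Sun1 (-0.27). In aPD1ab against young, 2 rose, Banf1 (0.49) and Lmna (0.58), which encodes lamins A and C, and 3 fell, led by Lbr, the lamin B receptor (-0.66), and Sun1 (-0.26).

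Of 25 genes for factors that senescent cells secrete, 23 were tested. With age 4 rose and 2 fell, with a median of 0.71. Gdf15, a stress-induced cytokine, rose from 15.2 ± 3.23 to 42.1 ± 13.04 CPM (1.54, SE 0.23, edgeR adjusted p = 0.00659; SD, n = 5 and 4), and the chemokine Ccl8 from 2.32 ± 1.55 to 23.9 ± 15.2 (3.41, SE 0.59, edgeR adjusted p = 0.0104). The binding proteins Igfbp5 (-0.78) and Igfbp4 (-0.86) fell. Without replicate 1, 8 rose and 3 fell. In aPD1ab against young 6 rose and 1 fell, with Gdf15 at 51.2 ± 13.4 CPM (1.77, SE 0.20, edgeR adjusted p = 0.00264; SD, n = 4). Between the aged groups 0 were called with all libraries. Without replicate 1, 2 rose and 3 fell there, with Igfbp4 at 1.77, Igfbp7 at 1.09, the growth factor Hgf at -1.79 and Tgfb1 at -0.90. Glb1, which encodes the lysosomal galactosidase stained to mark senescent cells, fell with age from 82.3 ± 10.9 to 53.4 ± 11.5 CPM (-0.56, SE 0.15, edgeR adjusted p = 0.0311; SD, n = 5 and 4), and the other listed enzyme of this kind, Fuca1, was not called in any comparison. Markers of other cells moved with age too: 7 of 8 endothelial and 3 of 7 mesangial markers fell, 2 of 8 T cell and 2 of 6 B and plasma cell markers rose, and the summed B and plasma cell markers were at 87.3 to 194 CPM in young mice, 334 to 1017 with IgG2a and 54.4 to 594 with aPD1ab. The part of these and of the proximal tubule, podocyte and macrophage markers in the list results was not tested.

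**Figure D5:**
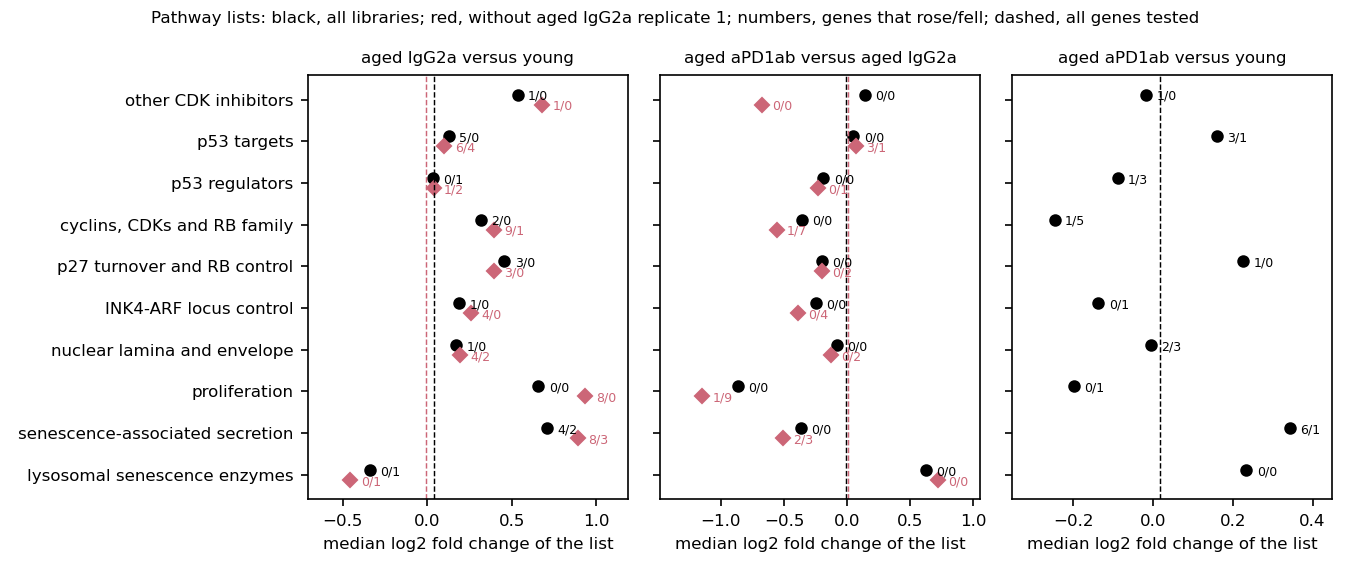
Median log2 fold change (horizontal axes) of each pathway list in the 3 comparisons, with all libraries in black and without aged IgG2a replicate 1 in red; the small numbers are the genes that rose and fell, and dashed lines are the median of all genes tested. The proliferation list has the highest red median with age, 0.94, and the lowest between the aged groups, -1.15.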

How the data were processed

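Podocyte fractions of 13 mice were analysed as mRNA-Seq. The authors deposited whole-number counts of reads per Ensembl gene, not normalized; per the labels, reads were aligned with HISAT2 to mm10 (GRCm38) and counted with featureCounts. Versions and the strand setting are not given in the sources used here. The labels list 5 mice per group, but the column numbers stand in no label: groups of columns were read from the study's principal component plot, and 2 columns absent from it were not used. The labels give no batch. Replicates are separate mice.

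Gene names, exon lengths and positions came from GENCODE M21 (GRCm38), promoter windows from RefSeq. Each pair of groups was fitted alone in R 4.3.3 with edgeR 4.0.16 (quasi-likelihood, robust, TMM, filterByExpr), with Benjamini-Hochberg adjustment over all genes tested and a threshold of 0.05. CPM use TMM factors over 13 libraries, and log2 CPM a prior count of 2. Group differences of single values were tested with two-sided exact permutation tests. Alternatives used other size factors, DESeq2 1.42.0, limma 3.58.1 (voom with quality weights), 1 fit of all groups, no filter, marker scores as covariates, a further 2-fold threshold, and each library left out; tests relative to marker or proliferation scores were added after seeing the data. The values of 1 marker, and an alternative that rests on it, are not reported here. The fitting step was tested on simulated data. A count of 0 allows up to 3 reads. Depth of 19912969 to 32717100 reads per library sets the counting error only.

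The members and the lists were chosen with earlier results of these data known. Named genes are the 9 members, in each list up to 2 called genes in each direction with the smallest p (or the 2 most abundant where none was called) with those printed being a subset, and the 3 genes most like each member with a mean of at least 1 CPM; markers named are Nphs1, Slc34a1 and Umod.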

Additional observations from a re-analysis of the deposited data

Results flagged for a closer look

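In 27 sets of a member and a group, a library far from the others of its group was looked for with Dixon's ratio at its 95% critical value, which chance passes in about 1 of 20 sets. It was passed in 4. Cdkn2a in young replicate 2 was at 0.122 CPM (4 reads) where the other 4 young libraries were at 0. The other 3 were all in aged aPD1ab replicate 4, with Cdkn2a at 1.01 CPM against 0.160 to 0.244 in the rest of the group, Cdkn2b at 1.94 against 1.14 to 1.25, and Trp53 at 37.3 against 33.8 to 34.3. The same library also held the highest Cdkn2c, at 14.2 CPM, and was the deepest of its group at 31493051 reads. Without it, the log2 fold change of Cdkn2c against young was 0.57 (edgeR adjusted p = 0.0830) in place of 0.79 (edgeR adjusted p = 0.0278).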

How the results depend on the processing

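Of 475 values of member log2 fold changes under alternatives, 48 changed sign, and whether these also lost a call was not counted. Of those that kept their sign, 374 stayed on their side of the threshold, 28 lost the call and 25 gained it. Exact permutation tests are among the 475, and their unadjusted p was held to the same threshold. No paired analysis was possible because replicate numbers only follow the order of the columns. The cause of a change was not tested.

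The count of members called with age, 2, was 1 with RLE factors, with library totals and with a 2-fold threshold, 4 with DESeq2, 6 with voom, 0 with each marker score, and 0 to 6 when 1 library was left out (6 without aged IgG2a replicate 1, 1 without young replicate 3 or aged IgG2a replicate 4, 0 without young replicate 1, 4 or 5 or aged IgG2a replicate 2 or 3). The count of genes, 2780, was 4252 with DESeq2, 7423 with voom, 25, 0 and 302 with the proximal tubule, podocyte and macrophage scores, 1353 with a 2-fold threshold, and 553 to 7397 with 1 library left out (553 without aged IgG2a replicate 3, 7397 without replicate 1). Between the aged groups, 0 members became 4 with voom and 0 to 3 with 1 library left out, and 0 genes became 2132 with DESeq2, 6160 with voom, 2863 in 1 fit of all groups and 0 to 4788 with 1 library left out, the highest being without aged IgG2a replicate 1 for both. For aPD1ab against young, 1 member became 2 with DESeq2, voom, 1 fit of all groups, no filter and the proximal tubule and macrophage scores, 0 with a 2-fold threshold, and 0 to 2 with 1 library left out (2 without aPD1ab replicate 3, 0 without young replicate 1, 3, 4 or 5 or aPD1ab replicate 4); 3578 genes became 980 with the podocyte score, 766 with a 2-fold threshold and 2369 to 3868 with 1 library left out.

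Signs turned as follows, on the log2 scale. With library totals, which moved the median of all genes by -0.41, 0.25 and -0.12 in the 3 comparisons, the change with age was -0.11 for Cdkn1a, -0.26 for Cdkn1b, -0.19 for Mdm2 and -0.13 for Trp53, that between the aged groups 0.070 for Cdkn2b and 0.077 for Trp53, and that of aPD1ab from young -0.10 for Lmnb1 and -0.056 for Trp53. With the macrophage score, the change with age was -0.084 for Cdkn1a, -0.060 for Cdkn1b, -0.39 for Lmnb1 and -0.30 for Trp53, that between the aged groups 0.070 for Lmnb1 and 0.11 for Trp53, and aPD1ab against young -0.087 for Lmnb1. With the podocyte score, they were with age -0.20 for Cdkn1b, 1.46 for Cdkn1c, -0.20 for Cdkn2c and -0.60 for Trp53, between the aged groups -0.084 for Cdkn1a and -0.011 for Mdm2, and against young 0.71 for Cdkn1c. With the proximal tubule score, they were with age -0.31 for Cdkn1b, -0.0033 for Cdkn2c, -0.65 for Lmnb1 and -0.47 for Trp53, between the aged groups 0.022 for Cdkn1b, 0.27 for Lmnb1 and 0.25 for Trp53, and against young -0.023 for Lmnb1. Relative to the podocyte markers Cdkn1c was 0.15 with age and 0.57 in aPD1ab against young, and relative to proliferation Lmnb1 was 0.21 between the aged groups. Mdm2 between the aged groups was -0.0031 with DESeq2, -0.0081 with RLE and -0.0076 without a filter, and Cdkn2b 0.079 with voom. With 1 library left out, values between the aged groups ran from -0.17 to 0.34 for Cdkn1a, -0.036 to 0.32 for Cdkn2c and -0.028 to 0.049 for Mdm2, and against young with aPD1ab from -0.028 to 0.31 for Cdkn2b, -0.094 to 0.13 for Lmnb1 and -0.019 to 0.12 for Trp53.

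At this depth Cdkn2a rests on 0 to 36 reads a library and Cdkn2b on 22 to 69.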
